A study of Mus musculus with 43 samples.

Results

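Matricellular proteins are secreted into the extracellular matrix, where they change how cells attach and signal more than they bear load. The genes described here are 10 of the 26264 genes in each of 6 count tables: Tnc, which codes for tenascin-C; Postn, which codes for periostin; the thrombospondin genes Thbs1 and Thbs2; the CCN genes Ccn1 to Ccn5; and Sparc. They were taken by symbol, and Tnc, Ccn5, Ccn2, Thbs1 and Postn were included because their values in these same libraries follow RUNX1 or RUNX2. For those 5 genes levels and fold changes are therefore a description, with no test. The choice did not name the values of Thbs2, Ccn1, Ccn3, Ccn4 and Sparc, and their adjusted p-values are given. The whole set was drawn up with earlier results of these data known, so those p-values are no independent test of the set.

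The study asked how RUNX1 and RUNX2, transcription factors known from blood and bone development, act in mouse fat cells. Polyadenylated RNA was sequenced from 43 libraries in 15 groups. All cultures came from a brown preadipocyte line labelled BAT and were differentiated into mature brown adipocytes. Overexpression of Runx2 (3 libraries) or of Runx1 (3) was set against an empty vector (3). Double knockout of Runx1 and Runx2 (3), knockout of Runx1 (3) and knockout of Runx2 (3) were set against a knockout control (3). Runx2 lacking a part that the labels call the IDR (2) was set against full-length Runx2 (2), and that table has no vector group. In inguinal white fat (iWAT), mice labelled Adipoq-cre:Runx1 KO (3) were set against Runx1 flox mice (3), and mice labelled Adipoq-cre:Runx2 KO (3) against Runx2 flox mice (3). A further iWAT set labelled HFD had Runx1 knockout (3) and WT (3), with genotype as its sole other label. The columns of its table do not name HFD: that table was assigned to this set because its name opposes Runx1 knockout to WT, as among fat samples only the HFD titles do, and because the other Runx1 knockout fat has a table of its own. Adipoq-cre acts in adipocytes, so the other cells of the fat pad keep their floxed alleles.

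Tenascin-C and periostin are low in most resting adult tissue and are known from wounds, fibrosis and fibroblast activation, where they bind integrins, fibronectin and collagen. Thrombospondins bind CD36 and CD47, restrain new blood vessels, and thrombospondin-1 can release TGF-beta from its latent form. CCN1 and CCN2 are short-lived responders to serum, stretch and the YAP and TEAD factors, CCN5 lacks the C-terminal module of the other CCN proteins, and SPARC binds collagen and is a main secreted product of fat tissue.

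Library totals were 28.1 to 52.2 M counts, and all 10 genes passed the filter on low counts in all 6 tables. Runx1 averaged 73.8 ± 10.5 CPM (library-size-scaled counts) in Runx1-overexpressing cultures and 5.56 ± 1.23 CPM in vector cultures, and Runx2 averaged 309 ± 25.8 CPM in Runx2-overexpressing cultures and 8.77 ± 0.892 CPM in vector cultures (SD, n = 3 each). Each transcript also lay above vector with the other factor, without overlap. Runx1 averaged 30.3 ± 2.03 CPM in Runx2-overexpressing cultures, and Runx2 averaged 16.8 ± 1.37 CPM in Runx1-overexpressing cultures (SD, n = 3 each). The part of the other factor in the overexpression results was not tested. In the knockout cultures the ranges overlapped the control: Runx1 averaged 5.43 ± 1.13 CPM in cultures labelled Runx1 knockout and 5.24 ± 2.62 CPM in the control, and Runx2 averaged 7.61 ± 0.956 CPM in cultures labelled Runx2 knockout and 7.71 ± 1.28 CPM in the control (SD, n = 3 each). In fat, Runx1 in the Runx1 knockout was 20.9 ± 0.41 CPM against 32.1 ± 9.34 CPM in Runx1 flox, without overlap (SD, n = 3 each). Runx2 in the Runx2 knockout was 4.32 ± 2.22 CPM against 9.89 ± 5.42 CPM in Runx2 flox (SD, n = 3 each). These ranges overlapped, at 2.40 to 6.74 CPM in the knockout and 4.19 CPM in flox replicate 3. Runx1 in the HFD Runx1 knockout was 11.7 ± 3.09 CPM against 14.4 ± 4.996 CPM in HFD WT (SD, n = 3 each). The HFD ranges also overlapped, at 8.15 to 13.9 CPM in the knockout and 8.68 to 17.9 CPM in WT. Several libraries stood apart. Summed transcripts of 9 cardiac muscle genes reached 1711 CPM in Runx1-overexpressing replicate 3, 113 CPM in vector replicate 1 and 454 CPM in vector replicate 2, against at most 4.79 CPM in the other overexpression libraries. Double knockout replicate 1 had an adipocyte marker sum of 18302 CPM against 9175 CPM at the lowest of its group, and Runx2 flox replicate 3 had 59337 CPM against 24181 CPM at the lowest of its group. Nothing in the labels says that libraries of a group came from separate cultures or animals, so p-values measure the spread between these libraries, which may be technical.

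Promoter sequence was at hand for 5 of the 10 genes (Tnc, Postn, Thbs2, Ccn1 and Sparc, 7 windows, as Tnc and Postn have a pair of start sites each) and was not at hand for Thbs1, Ccn2, Ccn3, Ccn4 and Ccn5. One window each is shown for the genes whose levels moved most among these: the 250 bases before the transcription start, 5′ to 3′ on the gene's own strand, from RefSeq on GRCm38.p6. The Tnc window is chr4:64047016-64047265 (minus strand), the Postn window is chr3:54360857-54361106 (plus strand) and the Ccn1 window is chr3:145649986-145650235 (minus strand). Capitals mark matches to the motifs searched.
Tnc: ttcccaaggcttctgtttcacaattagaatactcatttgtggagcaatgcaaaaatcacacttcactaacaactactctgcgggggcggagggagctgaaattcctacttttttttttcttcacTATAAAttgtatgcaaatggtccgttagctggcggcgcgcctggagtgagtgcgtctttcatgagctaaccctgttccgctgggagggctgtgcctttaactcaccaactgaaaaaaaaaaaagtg
Postn: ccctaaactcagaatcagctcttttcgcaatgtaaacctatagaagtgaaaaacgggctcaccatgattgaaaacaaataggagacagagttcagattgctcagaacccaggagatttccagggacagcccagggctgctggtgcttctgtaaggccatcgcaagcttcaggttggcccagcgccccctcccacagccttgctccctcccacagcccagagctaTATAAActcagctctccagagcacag
Ccn1: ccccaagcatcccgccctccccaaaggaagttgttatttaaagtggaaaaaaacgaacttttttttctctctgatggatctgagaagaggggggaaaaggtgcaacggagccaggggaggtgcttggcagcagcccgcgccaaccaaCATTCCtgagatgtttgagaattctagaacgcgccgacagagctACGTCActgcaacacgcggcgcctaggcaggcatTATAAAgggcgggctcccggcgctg
The motifs were searched on both strands: TGTGGT or TGCGGT for RUNX, GGAATG for TEAD, TGANTCA for AP-1, TGACGT for CREB-type factors and TATAAA for the TATA box. None of the 7 windows held the RUNX letters, which 18.6% of 32851 RefSeq promoter windows of this length hold, and none held the AP-1 letters, which 6.75% hold. The Ccn1 window held a TEAD match from base -103 to base -98 (12.6% of windows hold one), a CREB-type match from -59 to -54 (6.47%) and a TATA box from -25 to -20, counting -1 as the base before the start. A TATAAA match also lay from -26 to -21 in the Postn window and, farther from the start, from -126 to -121 in the Tnc window. Of all windows 12.4% hold those letters. Letters in a window of this size are a description and not a binding site.

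Tnc and Ccn5 lay far above their vector levels with both factors. Tnc had 595, 693 and 614 CPM in Runx2-overexpressing cultures and 910.1, 835 and 979 CPM in Runx1-overexpressing cultures, against 10.3, 7.31 and 18.6 CPM in vector cultures. Its log2 fold change was 5.70 ± 0.30 for Runx2 and 6.22 ± 0.31 for Runx1 (SE). The groups did not overlap, and the Runx1 cultures lay above the Runx2 cultures in every library. Ccn5 had 114, 94.5 and 85.0 CPM with Runx2 and 147, 136 and 106 CPM with Runx1, against 0.395, 0.268 and 0.400 CPM with vector. The 3 vector libraries held 12, 8 and 16 counts of Ccn5, so its vector level rests on few counts, and the log2 fold changes were 8.08 ± 0.22 for Runx2 and 8.49 ± 0.22 for Runx1 (SE). Both comparisons use the same 3 vector libraries.

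Thbs1, Ccn2 and Postn were higher with Runx2 than with Runx1. Thbs1 had 2194, 2471 and 2289 CPM in Runx2 cultures and 1125, 1005 and 1104 CPM in Runx1 cultures, against 152, 105 and 282 CPM in vector cultures, with log2 fold changes of 3.69 ± 0.32 and 2.58 ± 0.30 against vector (SE). Ccn2, the connective tissue growth factor, had 660.5, 626 and 563 CPM in Runx2 cultures and 148, 124 and 108 CPM in Runx1 cultures, against 32.4, 19.5 and 45.0 CPM in vector cultures. For both genes the 3 groups formed 3 separate steps, the vector lowest. Postn had 459.9, 485 and 474 CPM in Runx2 cultures and 84.4, 67.1 and 72.4 CPM in Runx1 cultures, against 47.2, 34.0 and 94.8 CPM in vector cultures. The Runx1 cultures thus overlapped the vector cultures for Postn, whose log2 fold change was 3.01 ± 0.33 with Runx2 and 0.34 ± 0.31 with Runx1 (SE), and 0.86 with Runx1 when vector replicate 3 was left out.

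Among the genes whose values the choice did not name, Ccn1 and Ccn4 rose with both factors. Ccn1, a cysteine-rich ligand of integrins, had 1951, 1769.6 and 1677 CPM in Runx2 cultures and 215, 216 and 156 CPM in Runx1 cultures, against 51.9, 32.9 and 76.5 CPM in vector cultures. It rose by a log2 fold change of 5.06 ± 0.30 with Runx2 (edgeR quasi-likelihood test, SE, adjusted p = 2.1e-07) and 1.86 ± 0.26 with Runx1 (adjusted p = 0.00018). Ccn4, a Wnt-responsive gene, had 53.1, 68.8 and 62.2 CPM with Runx2 and 37.2, 37.5 and 41.5 CPM with Runx1, against 4.74, 2.58 and 9.25 CPM with vector. It rose by 3.45 ± 0.36 with Runx2 (edgeR adjusted p = 2.5e-05) and 2.79 ± 0.36 with Runx1 (adjusted p = 0.00014), and by 4.07 and 3.38 when vector replicate 3 was left out.

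Ccn3 and Thbs2 rose with Runx2, and with Runx1 they did not pass the test. Ccn3, which can oppose CCN2 in fibrosis models, had 143, 158 and 156 CPM in Runx2 cultures and 9.72, 7.42 and 8.82 CPM in Runx1 cultures, against 7.11, 7.72 and 15.3 CPM in vector cultures. It rose by a log2 fold change of 3.91 ± 0.26 with Runx2 (edgeR adjusted p = 3.6e-07), against -0.22 ± 0.25 with Runx1 (adjusted p = 0.47). Thbs2 had 584, 635 and 605 CPM in Runx2 cultures and 127, 100.2 and 118 CPM in Runx1 cultures, against 121, 90.9 and 194 CPM in vector cultures. Its log2 fold changes were 2.17 ± 0.23 with Runx2 (edgeR adjusted p = 1.0e-05) and -0.23 ± 0.22 with Runx1 (adjusted p = 0.39). Without the 3 libraries that held cardiac transcripts, an alternative chosen after seeing the data, the log2 differences of Runx1 cultures were -0.77 for Thbs2 and -0.83 for Ccn3. They rest on vector replicate 3 alone, the highest vector library for both genes, and are given with no test. Thbs2 with Runx1 also passed without vector replicate 2, at -0.46 (adjusted p = 0.0498).

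Sparc was abundant in all 3 groups. It had 2798, 2619 and 2584 CPM in Runx2 cultures and 1765, 1830.4 and 1577 CPM in Runx1 cultures, against 1373, 1287 and 1532 CPM in vector cultures. It rose by 0.93 ± 0.10 on the log2 scale with Runx2 (edgeR adjusted p = 7.2e-06) and by 0.30 ± 0.10 with Runx1 (adjusted p = 0.020). The Runx1 call was lost without vector replicate 1 or 2 or Runx1 replicate 1 or 2, with adjusted p up to 0.078. In all, 10 of 10 genes were called higher with Runx2 and 7 of 10 with Runx1. Over all 14661 tested genes 60.9% were called with Runx2 (31.3% higher and 29.6% lower) and 54.0% with Runx1 (28.2% higher and 25.8% lower). The median log2 fold change of the 10 genes was 3.80 with Runx2 and 1.92 with Runx1, against 0.03 and 0.06 over all tested genes, and since 5 of the genes were chosen on these contrasts nothing is read from these counts, here or in the comparisons that follow.

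**Figure D1:**
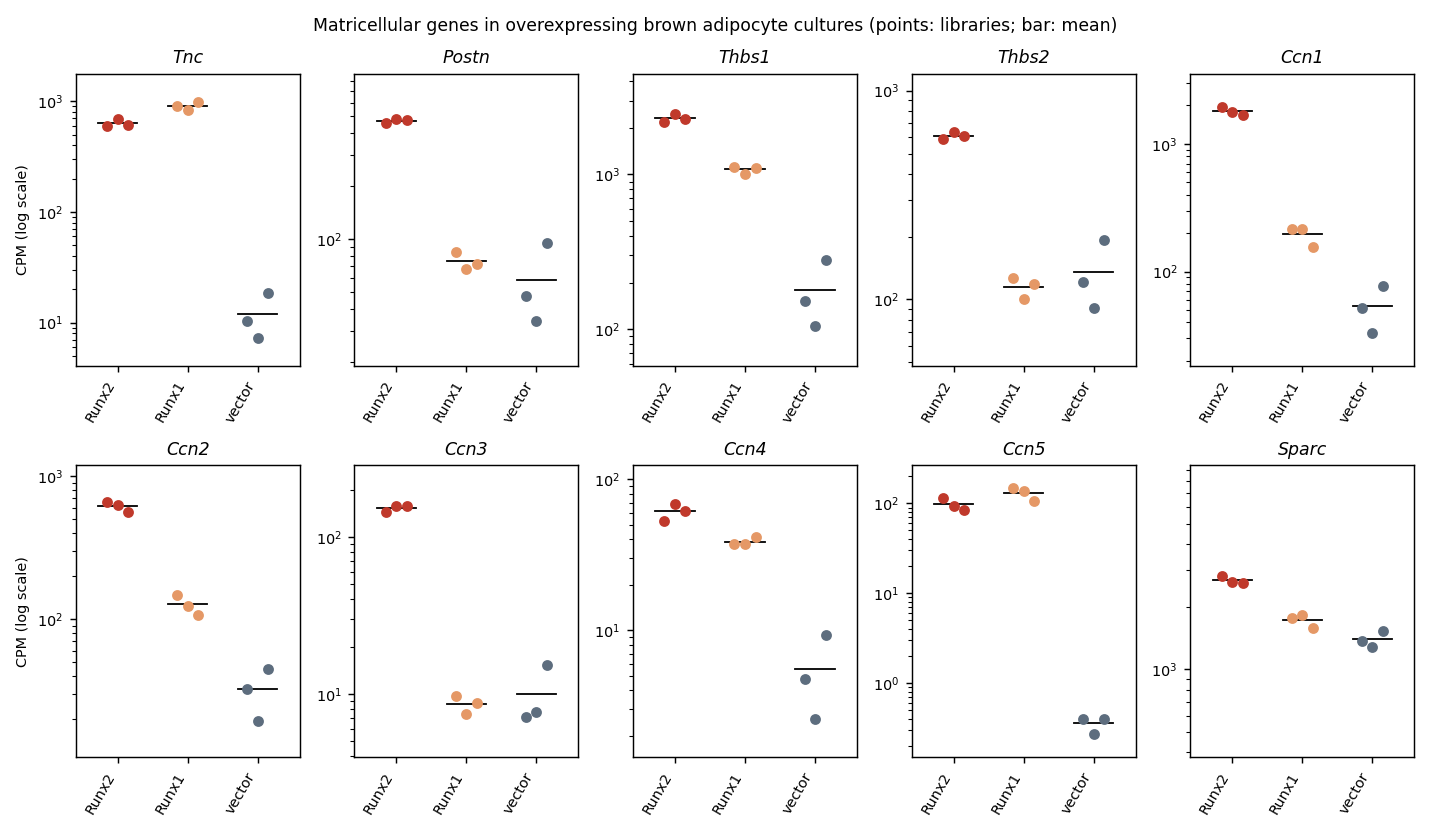
CPM (log axis) of the 10 genes in each overexpression library, with Runx2 on the left, Runx1 in the middle and empty vector on the right; points are libraries and bars are means. Tnc and Ccn5 average higher with Runx1 than with Runx2, with overlapping libraries for Ccn5, while Ccn3 stands at 143 to 158 CPM with Runx2 and below 16 CPM in every other library.

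The factors were also set against each other, Runx2 over Runx1, a contrast with no vector library in the difference itself. Of the 10 genes, 7 were called higher with Runx2 and 1, Ccn5, lower, where 39.9% of all tested genes were called, 18.9% higher and 21.0% lower. Ccn5 left that count without any 1 of 6 libraries (vector replicates 1 and 3, Runx1 replicates 1 and 2, Runx2 replicates 2 and 3) and when only the 2 groups were fitted, and Thbs1 left it without Runx2 replicate 2. Ccn3 rose by a log2 difference of 4.14 ± 0.26 (edgeR adjusted p = 1.8e-06), Ccn1 by 3.20 ± 0.27 (1.7e-05), Thbs2 by 2.40 ± 0.23 (2.4e-05) and Sparc by 0.63 ± 0.10 (0.00047). Ccn4 differed by 0.66 ± 0.32 (adjusted p = 0.13), and it passed without vector replicate 2 or without vector replicate 3, at 0.69 both times (adjusted p = 0.019 and 0.010). It also passed when only the 2 groups were fitted, at 0.69 (edgeR adjusted p = 0.0020). For the genes chosen on these data the differences were 2.66 ± 0.33 for Postn, 2.28 ± 0.25 for Ccn2, 1.10 ± 0.29 for Thbs1, -0.41 ± 0.14 for Ccn5 and -0.52 ± 0.25 for Tnc. Tnc and Ccn5 were thus the 2 members with a negative difference.

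Per kilobase of exon sequence, the order of the genes also differed between groups. In Runx2 cultures Sparc stood at 980.1 ± 42.2 CPM per kilobase and Ccn1 at 891 ± 69.2, neighbours whose ranges overlap, followed by Thbs1 at 396 ± 24.1, Ccn2 at 222 ± 17.9, Postn at 144 ± 3.76, Thbs2 at 103 ± 4.40 and Tnc at 81.6 ± 6.68 (SD, n = 3). Ccn5 at 56.9 ± 8.61 and Ccn3 at 53.1 ± 2.88 lay within their spread of each other, and Ccn4 was last at 12.04 ± 1.54. In Runx1 cultures Tnc was at 117 ± 9.24 CPM per kilobase and Ccn3 was last at 3.02 ± 0.405. In vector cultures Sparc was first at 514 ± 45.6 CPM per kilobase and Ccn5 last at 0.206 ± 0.0434, with Tnc at 1.55 ± 0.748 and Ccn4 at 1.08 ± 0.667 within their spread of each other.

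Other genes of the same biology were followed in fixed lists, described by counts and medians. Over all tested genes, 60.9% were called with Runx2 (31.3% higher and 29.6% lower) and 54.0% with Runx1 (28.2% higher and 25.8% lower). The list counts for both factors are to be read beside those shares. Of the tested related matricellular genes (19 of 22 listed), 14 were called higher and 1 lower with Runx2 (median log2 2.92), and 11 higher and 3 lower with Runx1 (median 1.81). Thbs3, a further thrombospondin, rose by 3.81 ± 0.15 with Runx2 and 3.08 ± 0.15 with Runx1, and Tnn, tenascin-N, rose by 5.76 ± 0.27 with Runx1 (edgeR adjusted p at most 4.6e-08 for each). Mgp, the matrix Gla protein, rose by 3.73 ± 0.17 with Runx1 (adjusted p = 3.0e-08), and Fbln5, an elastic fibre protein, fell by 0.98 on the log2 scale with Runx1 (adjusted p = 1.1e-05). Among 14 matrix proteins that bind the members, 13 were called higher and 0 lower with Runx2 and 11 higher and 0 lower with Runx1, with Col6a1, a collagen VI chain, at 1.79 ± 0.11 and 1.57 ± 0.11.

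Receptors moved both ways, as did the tested genes as a whole. Of 20 tested receptors and partners, 11 were called higher and 4 lower with Runx2 (median 0.42), and 8 higher and 6 lower with Runx1 (median 0.16). The integrin subunits Itgb3 (4.67 ± 0.26 with Runx2 and 4.39 ± 0.26 with Runx1) and Itga9, part of a tenascin-C receptor (5.26 ± 0.37 and 5.14 ± 0.37), rose with both factors. Cd36, a thrombospondin receptor and fatty acid carrier of adipocytes, fell by 1.38 on the log2 scale with Runx2 (edgeR adjusted p = 2.8e-06), and the proteoglycan gene Sdc4 fell by 1.12 with Runx2 and by 1.52 with Runx1.

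Lists of target genes of the pathways known to drive CCN genes were counted in the same way. All 17 cytoskeletal targets of SRF and MRTF were called higher with Runx2 (median 2.69) and with Runx1 (median 2.38), Myl9, a myosin light chain, at 5.32 ± 0.21 and 5.06 ± 0.21. Of 20 YAP and TEAD targets without the CCN genes, 14 were called higher and 1 lower with Runx2 (median 0.95) and 11 higher and 4 lower with Runx1 (median 0.38). Ankrd1, one of these targets, rose by 3.78 ± 0.22 with Runx2 and 2.98 ± 0.22 with Runx1. Of 19 TGF-beta and SMAD targets, 13 were called higher and 3 lower with Runx2 (median 1.20) and 10 higher and 4 lower with Runx1 (median 0.55). All 14 immediate early genes were called higher with Runx2 (median 3.13), Fos at 5.08 ± 0.11 and Egr1 at 4.01 ± 0.10. With Runx1, 6 immediate early genes were called higher and 3 lower (median 0.17), and Fos fell by 0.47 (edgeR adjusted p = 0.0026).

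Markers of other cells moved beside these genes. The summed level of 10 stromal fibroblast markers was 6694 to 7376 CPM in Runx2 cultures and 2219 to 2551 CPM in Runx1 cultures, against 482 to 1071 CPM in vector cultures, where replicate 3, the highest vector library for all 10 genes, was also the highest for this sum. The sum of 6 smooth muscle and pericyte markers was 1132 to 1441 CPM with Runx2 and 1051 to 1451 CPM with Runx1, against 91.6 to 114 CPM with vector. Acta2, Tagln and Cnn1 are in this sum and also among the SRF and MRTF targets. Col1a1, Col3a1 and Dcn are in the fibroblast sum and also among the matrix proteins. These sums and lists are thus not separate observations. The sum of 9 brown adipocyte markers was 94.2 to 106 CPM with Runx2 and 155 to 228 CPM with Runx1, against 976 to 1242 CPM with vector. The part of these shifts in the results above was not tested.

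Likeness across the 25 culture libraries was Pearson r of log2 CPM, after each gene's mean within its table was subtracted. Among 10249 genes, those most like Tnc were Gas1 (0.973), Col6a2 (0.967), Angpt1 (0.967) and Loxl3 (0.965). Those most like Ccn5 were Samhd1 (0.970), Gas1 (0.961), Olfml2b (0.957) and Angpt1 (0.955). These r values are a description over libraries of 3 tables scaled separately, in which the overexpression cultures and the vector lie far apart.

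**Figure D2:**
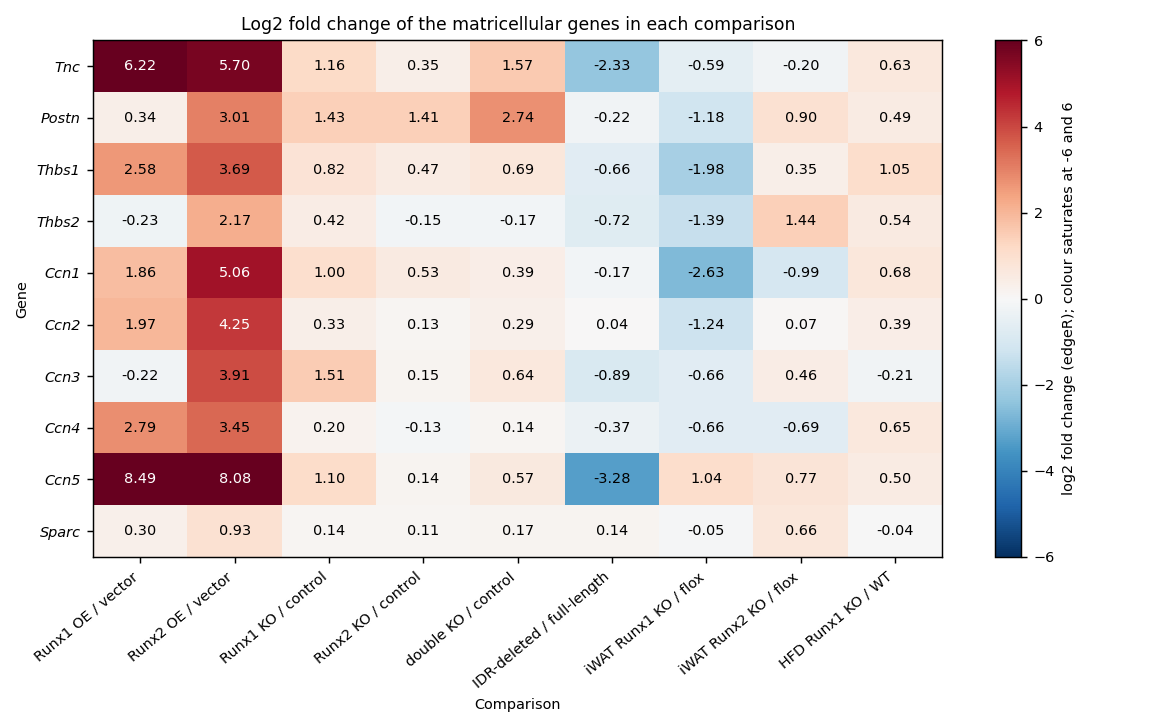
Log2 fold change (edgeR) of each gene (rows) in the 9 comparisons with a control (columns), each the perturbed group over its control; colour runs from -6 (blue) to 6 (red), and larger values take the end colour. The 2 overexpression columns hold the highest values, up to 8.49 for Ccn5, and the IDR-deleted column is lowest at Ccn5 (-3.28) and Tnc (-2.33).

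In knockout cultures the changes were small beside those of overexpression, and the called genes were higher, not lower, than in the control. Postn had 122, 169.7 and 200.5 CPM in double knockout cultures, 60.3, 68.5 and 70.1 CPM in Runx1 knockout cultures and 62.8, 71.8 and 61.6 CPM in Runx2 knockout cultures, against 29.9, 19.8 and 24.1 CPM in control cultures. The single knockouts lay above the control and below the double knockout in every library. The log2 fold changes were 2.74 ± 0.20, 1.43 ± 0.19 and 1.41 ± 0.19 (SE), and the double knockout departed from additivity of both single knockouts by -0.10 ± 0.26. The 3 comparisons share the control libraries.

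Tnc had 4.82, 16.3 and 18.9 CPM in double knockout cultures, 8.66, 11.4 and 10.2 CPM in Runx1 knockout cultures and 4.96, 6.06 and 6.21 CPM in Runx2 knockout cultures, against 3.73, 5.36 and 4.40 CPM in control cultures. Double knockout replicate 1 lay within the control's range and the other 2 libraries lay far above it. The log2 fold change of Tnc was 1.57 ± 0.38 in the double knockout, 1.16 ± 0.38 in the Runx1 knockout and 0.35 ± 0.38 in the Runx2 knockout (SE). Ccn5 stayed between 0.181 and 0.986 CPM in all 12 libraries, and its log2 fold change in the Runx1 knockout, 1.10 ± 0.54, became 2.02 without control replicate 2.

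Ccn1 and Ccn3 rose in the Runx1 knockout. Ccn1 had 28.3, 25.03 and 23.3 CPM in double knockout cultures, 37.3, 41.4 and 38.4 CPM in Runx1 knockout cultures and 28.2, 30.9 and 25.4 CPM in Runx2 knockout cultures, against 21.2, 16.6 and 20.7 CPM in control cultures. It rose by 1.00 ± 0.13 on the log2 scale in the Runx1 knockout (edgeR adjusted p = 0.0067), and did not pass the test in the Runx2 knockout (0.53 ± 0.13, adjusted p = 0.18) or the double knockout (0.39 ± 0.13, adjusted p = 0.065). Double knockout cultures thus lay below Runx1 knockout cultures for Ccn1, by a log2 difference of -0.61 ± 0.13 (edgeR adjusted p = 0.019). The departure from additivity was -1.14 ± 0.19 (adjusted p = 0.064), and it passed without double knockout replicate 1, at -1.23 (adjusted p = 0.00073).

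Ccn3 had 2.27, 3.29 and 3.12 CPM in double knockout cultures, 4.84, 5.42 and 5.59 CPM in Runx1 knockout cultures and 1.56, 2.38 and 2.22 CPM in Runx2 knockout cultures, against 2.15, 1.56 and 1.87 CPM in control cultures. It rose by 1.51 ± 0.23 in the Runx1 knockout (edgeR adjusted p = 0.014), and the double knockout lay below the Runx1 knockout by -0.87 ± 0.22 (adjusted p = 0.037). These calls are fragile. Ccn1 in the Runx1 knockout missed the threshold without control replicate 2 (adjusted p = 0.057), and Ccn3 did without control replicate 2 or 3 or any 1 Runx1 knockout library (adjusted p up to 0.10). The double knockout against Runx1 knockout calls were lost for both genes without any 1 Runx1 knockout library, and for Ccn3 also without control replicate 3 or Runx2 knockout replicate 2 or 3.

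Of the 10 genes, 3 were called higher in the Runx1 knockout (0.435% of 13551 tested genes were called, 0.406% higher and 0.0295% lower), 1 in the Runx2 knockout (0.184%, with 0.177% higher and 0.00738% lower), 2 in the double knockout (15.3%, with 8.27% higher and 7.01% lower), and none lower. Between groups, 1 was called higher and 2 lower in the double knockout against the Runx1 knockout (6.44% of genes called, 3.42% higher and 3.03% lower), 1 higher against the Runx2 knockout (5.52%, with 3.06% higher and 2.46% lower), and 0 for additivity (0.0443% of genes by edgeR, 0.00738% positive and 0.0369% negative; 2 of the 10 genes had an unadjusted p under 0.05, and DESeq2 called 1). Without double knockout replicate 1 these counts became 6, 2, 5, 5, 3 and 1, in the order given, while those over all tested genes became 386 in place of 59, 364 in place of 25, 3584 in place of 2070, 1779 in place of 873, 1768 in place of 748 and 218 in place of 6. Without control replicate 2 none of the 10 genes was called in the Runx1 knockout, among 4 genes in all by edgeR. The Runx2 knockout count was 0 without any 1 library of the control or of the Runx2 knockout, among 0 to 9 genes in all, and the double knockout count was 1 without control replicate 1 or 3.

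Thbs1 also averaged higher in the 3 knockouts, and Thbs2, Ccn2, Ccn4 and Sparc moved less. Thbs1 had 52.8 to 104 CPM in double knockout cultures and 85.9 to 96.6 CPM in Runx1 knockout cultures. It had 62.2 to 83.0 CPM in Runx2 knockout cultures, against 39.5 to 62.7 CPM in control cultures. The Runx1 knockout thus lay above the control in every library. By DESeq2 the log2 fold change of Thbs1 was 0.83 in the Runx1 knockout and 0.70 in the double knockout. Thbs2, Ccn4 and Sparc had log2 fold changes between -0.17 and 0.42 over the 3 knockouts, with edgeR adjusted p of at least 0.516, and Ccn2 had fold changes of 0.13 to 0.33. Without double knockout replicate 1, Thbs2 passed in the Runx1 knockout (0.43, edgeR adjusted p = 0.017) and Sparc in the double knockout (0.37, adjusted p = 0.00084). Thbs1 was then at 0.83 in the Runx1 knockout and 0.94 in the double knockout. The stromal fibroblast marker sum was 889 to 1647 CPM in double knockout cultures, 882 to 1030 CPM in Runx1 knockout cultures and 648 to 680 CPM in Runx2 knockout cultures, against 419 to 683 CPM in control cultures, and its part in these results was not tested.

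In the double knockout, the lists around these genes moved in part, where 15.3% of all tested genes were called, 8.27% higher and 7.01% lower. Of 17 tested related matricellular genes 7 were called higher and 1 lower (median 0.60, against 0.02 over all tested genes). Tgfbi, a relative of periostin, rose by 1.12 ± 0.12 (edgeR adjusted p = 0.00015) and Spon2, a spondin, by 3.42 ± 0.44 (adjusted p = 0.00045), while Fbln5 fell by 0.98 (adjusted p = 0.00030). Of 14 matrix proteins that bind the members 5 were called higher, with Col3a1, a fibrillar collagen chain, at 2.32 ± 0.24, and 6 of 17 SRF and MRTF targets were called higher. None of 20 receptors was called in either direction by edgeR.

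**Figure D3:**
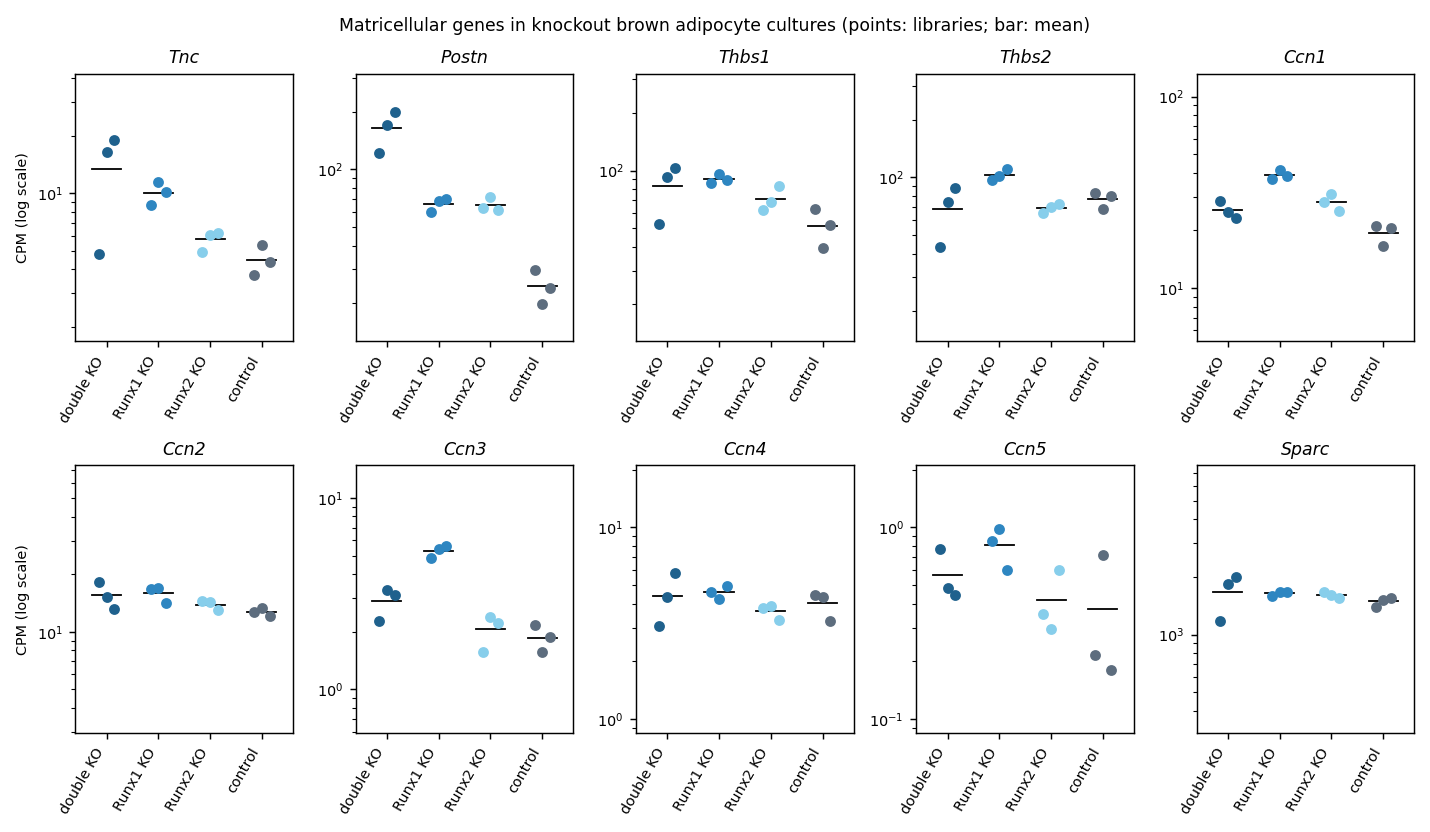
CPM (log axis) of the 10 genes in each knockout culture library, from left to right double knockout, Runx1 knockout, Runx2 knockout and control; points are libraries and bars are means. Postn forms 3 steps, with the double knockout at 122 to 200.5 CPM, the single knockouts at 60.3 to 71.8 CPM and the control at 19.8 to 29.9 CPM.

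Deleting the IDR from Runx2 went with lower Ccn5 and Tnc. Ccn5 had 1.91 and 1.75 CPM in IDR-deleted cultures, against 14.9 and 20.8 CPM in full-length cultures, a log2 fold change of -3.28 ± 0.20 (SE). Tnc had 4.31 and 5.42 CPM in IDR-deleted cultures, against 21.3 and 27.7 CPM in full-length cultures (-2.33 ± 0.16). Thbs1 had 58.4 and 69.2 CPM in IDR-deleted cultures, against 93.3 and 108 CPM in full-length cultures (-0.66 ± 0.09). For these 3 genes the groups did not overlap, and with 2 libraries each this rests on few samples.

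Thbs2 fell as well, with 49.3 and 55.6 CPM in IDR-deleted cultures against 76.6 and 95.7 CPM in full-length cultures, a log2 fold change of -0.72 ± 0.10 (edgeR adjusted p = 9.6e-06). Ccn1 and Ccn2, both high with overexpressed Runx2, overlapped between these groups. Ccn1 had 10.3 and 9.03 CPM in IDR-deleted cultures against 9.94 and 11.8 CPM in full-length cultures (-0.17 ± 0.16, adjusted p = 0.69), and Ccn2 had 12.2 and 6.74 CPM in IDR-deleted cultures against 9.996 and 8.45 CPM in full-length cultures (0.04 ± 0.21). Postn (-0.22 ± 0.14), Ccn3 (-0.89 ± 0.56, edgeR adjusted p = 0.49, -1.49 without IDR-deleted replicate 1), Ccn4 (-0.37 ± 0.40, adjusted p = 0.75) and Sparc (0.14 ± 0.07, adjusted p = 0.34) complete the set. In all 4 of the 10 genes were called lower and 0 higher, where 3.91% of 13110 tested genes were called, 1.51% higher and 2.40% lower. Of these 4, Ccn5, Tnc and Thbs1 were chosen on these data. Leaving out a library leaves 1 in its group, so no count is given for that. In the authors' deposited table of 341 genes for this comparison, the same 4 genes are listed, with log2 fold changes of -3.29 for Ccn5, -2.33 for Tnc, -0.66 for Thbs1 and -0.72 for Thbs2. That list describes the same libraries and is no independent result.

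The transcripts of the factors differed in the same direction. Runx2 averaged 129 ± 20.2 CPM in IDR-deleted cultures and 294 ± 0.885 CPM in full-length cultures (SD, n = 2 each). Runx1 averaged 3.84 ± 0.651 CPM in IDR-deleted cultures and 8.20 ± 0.24 CPM in full-length cultures. A lower dose of the factor and the loss of the IDR thus cannot be told apart. Counts of Runx2 may also be lower because the deleted part gives no reads, which was not tested. Adipocyte marker sums were 13905 to 14822 CPM in IDR-deleted cultures and 13972 to 14695 CPM in full-length cultures, and stromal fibroblast sums were 109 to 120 CPM in IDR-deleted cultures and 124 to 147 CPM in full-length cultures. Among the lists, 3 of 14 immediate early genes were called lower, with Egr1 at -0.84 ± 0.10 (edgeR adjusted p = 5.7e-07), and 3 of 17 related matricellular genes were called lower, with Fbln5 at -1.29 ± 0.13 and Spp1, osteopontin, at -0.76 ± 0.11. No SRF and MRTF target was called by edgeR. The share over all tested genes was 3.91%, with 1.51% higher and 2.40% lower.

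**Figure D4:**
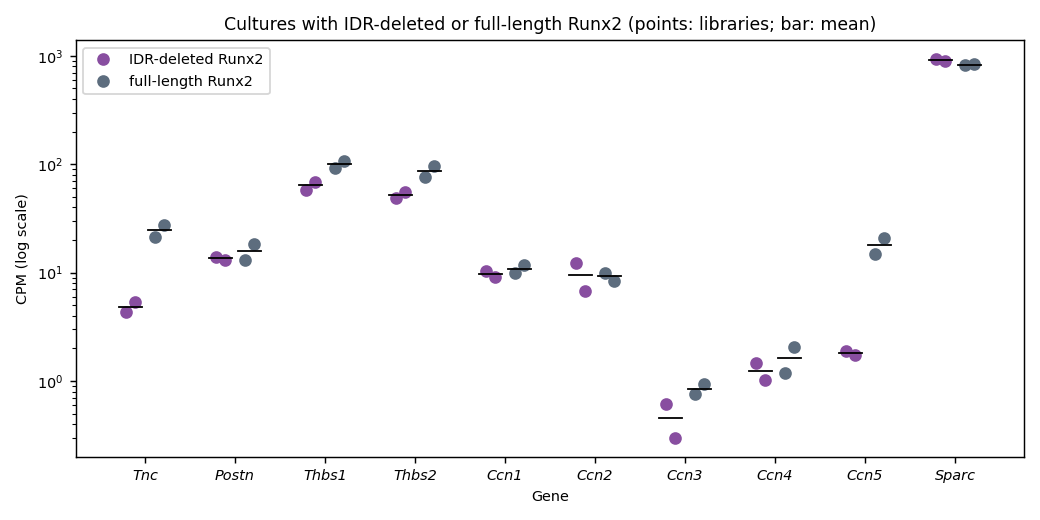
CPM (log axis) of the 10 genes in IDR-deleted cultures (left of each pair) and full-length cultures (right); points are the 2 libraries of each group and bars are means. Ccn5 and Tnc show the widest gaps, at 1.75 to 5.42 CPM in IDR-deleted cultures, and the points of Ccn1 and Ccn2 overlap.

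Set beside the overexpression table, the full-length cultures had a like Runx2 level and far lower levels of most of these genes. Runx2 averaged 294 ± 0.885 CPM in full-length cultures and 309 ± 25.8 CPM in Runx2-overexpressing cultures. Tnc averaged 24.5 ± 4.50 CPM in full-length cultures and 634 ± 51.9 CPM in Runx2-overexpressing cultures, and Ccn1 averaged 10.9 ± 1.31 CPM in full-length cultures and 1799 ± 139.7 CPM in Runx2-overexpressing cultures (SD, n = 2 and n = 3). Ccn5 was nearer, at 17.8 ± 4.19 CPM in full-length cultures and 97.8 ± 14.8 CPM in Runx2-overexpressing cultures. The tables were scaled separately and no test was run across them.

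In iWAT the Runx1 knockout had lower thrombospondins and Ccn2. Thbs1 had 24.4, 20.6 and 29.8 CPM in Runx1 knockout fat, against 94.2, 122 and 78.3 CPM in Runx1 flox fat, a log2 fold change of -1.98 ± 0.19 (SE). Ccn2 had 11.7, 9.63 and 12.8 CPM in Runx1 knockout fat, against 25.1, 34.0 and 21.6 CPM in Runx1 flox fat (-1.24 ± 0.20). Neither gene's groups overlapped. Postn had 144, 89.0 and 116 CPM in Runx1 knockout fat, against 400.2, 203 and 187 CPM in Runx1 flox fat (-1.18 ± 0.32), also without overlap. In bulk fat, fewer cells of a type and less RNA per cell cannot be told apart.

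Thbs2 fell in the same fat, with 83.8, 48.1 and 77.4 CPM in Runx1 knockout against 181, 237 and 131 CPM in Runx1 flox (-1.39 ± 0.27, edgeR adjusted p = 0.024). Its call was lost without flox replicate 1, knockout replicate 2 or knockout replicate 3 (adjusted p up to 0.067). Ccn1 had 27.5, 19.2 and 31.7 CPM in Runx1 knockout fat, against 57.7, 232 and 197 CPM in Runx1 flox fat. The groups did not overlap, and the flox libraries spread widely, and the log2 fold change of -2.63 ± 0.61 did not pass (edgeR adjusted p = 0.079), while it passed without flox replicate 1, at -3.04 (adjusted p = 0.00042). Ccn5 went the other way, with 5.68, 4.83 and 7.65 CPM in Runx1 knockout fat against 3.22, 3.67 and 1.93 CPM in Runx1 flox fat (1.04 ± 0.33).

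Tnc had 21.9, 14.1 and 14.5 CPM in Runx1 knockout fat against 15.3, 29.3 and 31.4 CPM in Runx1 flox fat, overlapping groups (-0.59 ± 0.28). Ccn3 (-0.66 ± 0.36, edgeR adjusted p = 0.29) and Sparc (-0.05 ± 0.18, adjusted p = 0.88) did not pass, and Ccn4, at 22 to 100 counts a library, had -0.66 ± 0.62 (adjusted p = 0.55), or 0.11 without flox replicate 1. Of the 10 genes 3 were called lower and 0 higher, where 7.48% of 15896 tested genes were called, 4.45% higher and 3.03% lower. The count was 1 without knockout replicate 2, among 99 genes in all, and also 1 without the 3 libraries with skeletal muscle transcripts (flox replicate 2 and knockout replicates 2 and 3, with marker sums up to 15256 CPM), an alternative chosen after seeing the data that leaves a lone knockout library, assumed to vary like the flox libraries, where Thbs2 was at -0.90 (adjusted p = 0.081) and Ccn2 at -0.99. The brown adipocyte marker sum was 319 to 485 CPM in Runx1 knockout fat against 123 to 201 CPM in Runx1 flox fat, without overlap. The endothelial marker sum was 619 to 882 CPM in Runx1 knockout fat against 970 to 1451 CPM in Runx1 flox fat, and the stromal fibroblast sum was 1899 to 2659 CPM in Runx1 knockout fat against 2158 to 4009 CPM in Runx1 flox fat; their part in these results was not tested. Of the lists, 3 of 21 tested receptors were called lower, among them Sdc4 at -1.14 ± 0.16 (edgeR adjusted p = 0.0060), and 0 of 13 tested immediate early genes were called, at a median of -1.24.

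In the Runx2 knockout, Thbs2 and Postn varied with 1 flox library. Thbs2 had 591, 301 and 343 CPM in Runx2 knockout fat, against 36.2, 90.6 and 328 CPM in Runx2 flox fat, and Postn had 428, 229 and 292 CPM in Runx2 knockout fat against 107, 169.6 and 232 CPM in Runx2 flox fat. Flox replicate 3 overlapped the knockout range in both. The log2 fold change of Thbs2 was 1.44 ± 0.73 (edgeR adjusted p = 0.29), and that of Postn was 0.90 ± 0.35. None of the 10 genes was called by edgeR or by DESeq2, and 1 had an unadjusted p under 0.05. Over 15574 tested genes edgeR called 0% (3206 had an unadjusted p under 0.05) and DESeq2 called 1039 genes.

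Without flox replicate 3, 5 of the 10 genes passed, all higher in the knockout, among 6354 genes in all. Thbs2 was then at 2.70 (edgeR adjusted p = 0.0030), Ccn3 at 1.18 (adjusted p = 0.016) and Sparc at 1.14 (adjusted p = 0.0073), with Postn at 1.20 and Ccn5 at 1.33. That library's adipocyte marker sum of 59337 CPM lay within the 55089 to 69430 CPM of the knockout, while its B cell sum was 263 CPM against up to 1547 CPM in its own group and 224 to 498 CPM in the knockout. Its Runx2 level of 4.19 CPM lay within the 2.40 to 6.74 CPM of the knockout, against 14.98 and 10.5 CPM in flox replicates 1 and 2. Its Runx1 level of 14.7 CPM lay between the knockout, at 8.99 to 12.3 CPM, and flox replicates 1 and 2, at 34.8 and 31.2 CPM. Whether flox replicate 3 belongs with its label was not tested. With all libraries, the brown adipocyte sum was 313 to 1075 CPM in Runx2 knockout fat against 76.4 to 214 CPM in Runx2 flox fat, and the T cell sum was 227 to 298 CPM in Runx2 knockout fat against 358 to 864 CPM in Runx2 flox fat, both without overlap. Ccn1 had 535, 147 and 258 CPM in Runx2 knockout fat against 379, 537 and 948 CPM in Runx2 flox fat, overlapping groups (-0.99 ± 0.52, edgeR adjusted p = 0.30, -1.61 without knockout replicate 1). The remaining genes had log2 fold changes of -0.69 ± 0.68 for Ccn4 (-1.70 without knockout replicate 3), -0.20 ± 0.28 for Tnc, 0.07 ± 0.26 for Ccn2, 0.35 ± 0.37 for Thbs1, 0.46 ± 0.49 for Ccn3, 0.66 ± 0.40 for Sparc and 0.77 ± 0.44 for Ccn5.

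In the HFD set Thbs1, Ccn1 and Tnc averaged higher in the Runx1 knockout than in WT. Thbs1 had 600.0, 308 and 318 CPM in HFD Runx1 knockout fat, against 164, 122 and 307 CPM in HFD WT fat, so that every knockout library lay above every WT library, by a small margin at 308 against 307 CPM (1.05 ± 0.37). Ccn1 had 403, 333 and 419 CPM in HFD Runx1 knockout fat, against 243, 204 and 276 CPM in HFD WT fat, again without overlap, at a log2 fold change of 0.68 ± 0.22 (edgeR adjusted p = 0.25). Tnc had 37.5, 57.9 and 38.5 CPM in HFD Runx1 knockout fat against 22.3, 24.0 and 40.3 CPM in HFD WT fat (0.63 ± 0.27). None of the 10 genes was called by edgeR or DESeq2, 3 had an unadjusted p under 0.05, and 2.11% of 15058 tested genes were called, 0.0465% higher and 2.07% lower. The set differed in immune cell markers: the B cell sum was 2.15 to 3.33 CPM in the knockout against 161 to 353 CPM in WT, and the T cell sum was 3.38 to 14.1 CPM in the knockout against 69.1 to 183 CPM in WT, and their part in these results was not tested.

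Ccn5 and Sparc spread widely within the HFD groups. Ccn5 had 202, 39.1 and 66.5 CPM in HFD Runx1 knockout fat and 132, 25.2 and 60.4 CPM in HFD WT fat, with a log2 fold change of 0.50 ± 0.61 that was 1.26 without WT replicate 1 and -0.47 without knockout replicate 1. Sparc had 8463, 8449.5 and 5512 CPM in HFD Runx1 knockout fat and 12127, 4117 and 6879 CPM in HFD WT fat (-0.04 ± 0.37). Both genes were above their levels in the other iWAT tables, where Ccn5 did not pass 7.65 CPM and Sparc did not pass 2173 CPM. Those tables were scaled separately, so table and condition cannot be told apart.

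**Figure D5:**
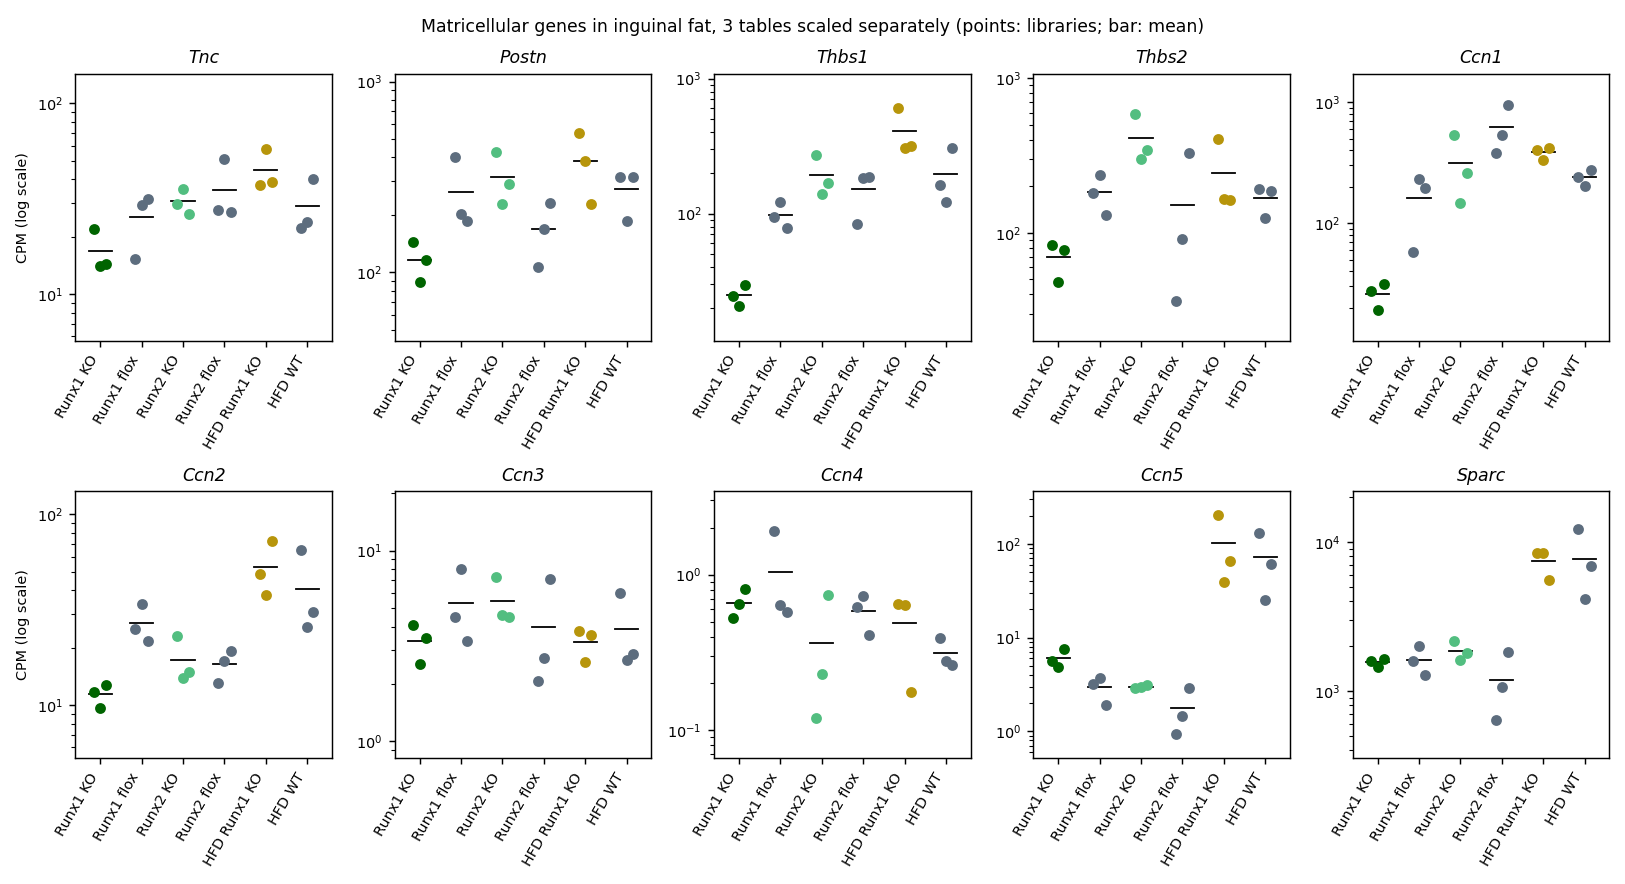
CPM (log axis) of the 10 genes in each iWAT library, each knockout to the left of its control: Runx1 knockout and Runx1 flox, Runx2 knockout and Runx2 flox, HFD Runx1 knockout and HFD WT; points are libraries and bars are means, and the 3 tables were scaled separately. Thbs1 lies below its control in the Runx1 knockout (20.6 to 29.8 CPM) and above it in the HFD Runx1 knockout (308 to 600.0 CPM), and Ccn5 reaches 202 CPM only in the HFD set.

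The difference between the Runx1 knockout effects was tested in 1 fit over both tables, HFD minus the iWAT not labelled HFD. Of the 10 genes 2 were called, both with a positive difference, where 4.40% of 16361 tested genes were called, 1.10% positive and 3.30% negative. Ccn1 had a difference of 3.29 ± 0.55 (edgeR adjusted p = 0.0053). Thbs1 had one of 3.01 ± 0.49, Thbs2 of 1.92 ± 0.52 (adjusted p = 0.055), Postn of 1.65 ± 0.50 and Ccn2 of 1.61 ± 0.47. The count was 4 without HFD knockout replicate 2 or 3, among 833 and 654 genes in all. Of 13 tested immediate early genes, 3 were called with a positive difference and 0 with a negative one. Their median was 1.42, against -0.05 over all tested genes. Between the iWAT Runx2 and Runx1 knockouts 1 gene of the 10 was called, Thbs1 at 2.36 ± 0.44. Over 16416 tested genes 1.58% were called (1.01% positive and 0.573% negative). Thbs1 was chosen on these data, so both its differences are a description. For Runx2 minus Runx1 the count was 6 without Runx2 flox replicate 3, among 4173 genes in all, and 0 without each of 8 other libraries of the 12. Thbs2 differed by 2.87 ± 0.87 (edgeR adjusted p = 0.10), and by 4.11 without Runx2 flox replicate 3 (adjusted p = 0.0020).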

How the data were processed

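The 6 tables hold raw counts per gene symbol, deposited by the authors with no scaling, per the file headers. Reads were processed with fastp, STAR and featureCounts on mm39, per the submitters' processing notes, with versions and options not given in the sources used here. Between 71.1 and 81.9% of the counts from 1 to 19 in a library were even numbers, so each mate of a read pair may have been counted. The log2 fold changes and the adjusted p-values in a deposited list of changed genes are the authors' own, per the file headers, and 10 columns of per-sample values in such lists were not used. Columns were mapped to groups by their names and the name of their table; the HFD table does not name HFD and was assigned by its knockout against WT pair and by exclusion.

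CPM were scaled by TMM within each table. Each table was fitted in edgeR 4.0.16 (R 4.3.3; filterByExpr with a minimum count of 10, robust quasi-likelihood test), with Benjamini-Hochberg adjustment over the 13110 to 15896 tested genes of a table and a call at adjusted p < 0.05. Differences between knockout effects come from joint fits of 2 tables, where condition and table cannot be told apart. The ± after a fold change is its standard error. The model was run on simulated counts with 200 changed genes, for the first comparison of each table alone. The other comparisons and the joint fits were not simulated. The outcome is not given here, so nothing is read from it. No replicate libraries were identical or within sampling noise (chi-square per degree of freedom on halved counts of at least 3.34).

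The genes and lists were chosen with earlier results of these data known. The rule for naming genes takes the 10 genes, Runx1 and Runx2 everywhere, up to 3 called genes of lowest p in each direction from each list, and the 4 genes most like Tnc and Ccn5; the text gives a part of these. The likeness used genes with a mean of at least 5 CPM. Alternatives were DESeq2 1.42.0, its size factors, no filter, a replicate block, only the compared groups, and leaving out libraries. The drawings used matplotlib 3.10.9 under Python 3.11.15.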

Additional observations from a re-analysis of the deposited data

Results flagged for a closer look

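The Runx1 knockout effect on Thbs1 differed between the HFD iWAT and the iWAT not labelled HFD by 3.01 on the log2 scale. Thbs1 was higher in 3 of 3 HFD knockout libraries than in any HFD WT library, and lower in 3 of 3 knockout libraries than in any Runx1 flox library of the other table. The difference ranged from 2.66 to 3.48 when each of the 12 libraries was left out in turn. For Ccn1 the same difference was 3.29, with edgeR adjusted p of 0.0053, and a range of 2.99 to 3.70 over the same 12 leave-outs. Neither single Runx1 knockout effect on Ccn1 passed the edgeR test with all libraries. Diet, table and the other differences between these sets of mice cannot be told apart. The knockout effect on Thbs1 in iWAT differed between Runx2 and Runx1 by 2.36, which ranged from 2.04 to 2.54 over 12 leave-outs and is given as a description. Its call was lost in most of those leave-outs and with the replicate block.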

How the results depend on the processing

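No value changed sign with a call under any alternative. The counts of the 10 genes called stayed within 1.5 times under every alternative that kept at least 2 libraries in each group. This held for both overexpression groups against vector, their difference, the IDR deletion and the HFD knockout. With the DESeq2 Wald test the count was 2 in place of 1 for the Runx2 knockout cultures, 5 in place of 2 for the double knockout, 2 in place of 1 for the double against the Runx2 knockout, 1 in place of 0 for additivity, 6 in place of 3 for the iWAT Runx1 knockout, 5 in place of 2 for HFD minus iWAT and 4 in place of 1 for Runx2 minus Runx1 in iWAT. With no filter on low counts, additivity had 1. Using only the compared groups gave 5 for the Runx1 knockout cultures, 1 for the double knockout, and 0 against either single knockout. Without the 3 libraries with skeletal muscle transcripts, the iWAT Runx1 knockout had 1. Leaving out 1 library at a time gave 6 to 8 for Runx1 and 10 for Runx2 overexpression, 6 to 10 for their difference, 0 to 6 for the Runx1 and 0 to 2 for the Runx2 knockout cultures, 1 to 5 for the double knockout, 1 to 5 and 1 to 3 against the Runx1 and Runx2 knockouts, 0 to 1 for additivity, 1 to 4 for the iWAT Runx1 and 0 to 5 for the iWAT Runx2 knockout, 2 to 4 for HFD minus iWAT and 0 to 6 for Runx2 minus Runx1. The cause was not tested.

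With the replicate block, Runx2 minus Runx1 in iWAT had 0 in place of 1, Thbs2 in the iWAT Runx1 knockout had an adjusted p of 0.082, and Ccn3 in the double against the Runx1 knockout 0.0501. Same-numbered libraries correlated from -0.26 to 0.41 in their deviations, so the numbers were not taken to pair samples.

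Over all genes, DESeq2 against edgeR called 220 against 59 (Runx1 knockout cultures), 197 against 25 (Runx2), 1913 against 873 and 1683 against 748 (double against Runx1 and Runx2), 202 against 6 (additivity), 2290 against 1189 (iWAT Runx1), 1039 against 0 (iWAT Runx2), 517 against 318 (HFD), 1378 against 720 (HFD minus iWAT) and 1565 against 260 (Runx2 minus Runx1). The block gave 32, 12, 1, 744, 206, 261 and 8 for the Runx1 and Runx2 knockout cultures, additivity, iWAT Runx1, HFD, HFD minus iWAT and Runx2 minus Runx1. Only the compared groups gave 195, 105, 379, 7 and 31 for the Runx1, Runx2 and double knockout and for the double against each. No filter gave 13 for additivity, and leaving out the skeletal muscle libraries gave 415. Leaving out 1 library gave 4 to 386 and 0 to 364 for the single knockouts, 1050 to 3584 for the double (2070 with all), 176 to 1952 and 205 to 1768 against the single ones, and 0 to 218 for additivity. In fat it gave 99 to 1381 and 0 to 6354 for iWAT Runx1 and Runx2, 120 to 394 for HFD, 308 to 833 for HFD minus iWAT and 3 to 4173 for Runx2 minus Runx1. Counts under about 30 a library, as for Ccn4 in fat and Ccn5 in control cultures, limit precision.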
